A study of Salmo salar with 51 samples.

Results

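The steadily falling probes are 200 of the 43689 probes of a salmonid oligonucleotide array, chosen because their level declined from 15 to 89 days post fertilization (dpf) without an abrupt change. A probe was kept if its Cy5 signal was at least 500 and unflagged on all 3 arrays of 15 dpf and if its mean moved by less than 0.8 on the log2 scale between each pair of consecutive time points from 15 to 89 dpf. The signal condition left 10774 probes and both conditions together left 6738. These were ranked by the mean of 15 and 20 dpf minus the mean of 77, 83 and 89 dpf, a difference called the fall here, and the top 200 were taken. The members were thus chosen by their measured values of 15 to 89 dpf, and what is given of the members on those days is a description with no test. The fit that compared 15 with 89 dpf held the members too, but their calls between those days are not used. Calls of single probes and of gene lists between those days are given only for probes that are not members. Shares over all tested probes, or all named ones, include the members. The values at 2, 5 and 10 dpf played no part in the choice, and the tests of the members given here are on those days.

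Whole Atlantic salmon (Salmo salar) of the McConnell (Mowi) strain, with no treatment, were raised in fresh water at 12 °C and sampled at 17 time points: 2, 5, 10, 15, 20, 25, 30, 35, 41, 47, 53, 59, 65, 71, 77, 83 and 89 dpf. At each time point 3 single individuals were hybridized, 1 per array, which gave 51 arrays on 14 slides. The slide numbers were read from the names of the scans, since the sample labels name no slide. Each individual carried Cy5 and was compared with one Cy3 reference pool made from all time points, in which 2 dpf had a smaller share, and there was no dye swap. By the study's methods 2, 5 and 10 dpf were blastula, gastrula and somite-forming embryos whose small RNA yield called for repeated extraction and labelling, the fish hatched between the 35 and 41 dpf samples, and the last samples were parr. A level here is the deposited log2 ratio of Cy5 to Cy3, centred on the median of each probe over all arrays, so 0 is that median and levels of different probes are not compared. In whole organisms, fewer cells of a type and less RNA per cell cannot be told apart.

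In fish, as in other animals, the cleavage divisions run on transcripts supplied by the egg, and the embryo starts broad transcription of its own genes around the mid-blastula stage. Rapidly dividing embryonic cells are known for high levels of the replication machinery, of chromatin proteins and of the proteins that bind, splice and export RNA. As tissues differentiate, dividing cells become a smaller part of the animal and products of specialised tissues such as contractile muscle take up more of its RNA.

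Names were available for 58 of the 200 probes, 55 of them with a gene symbol and 52 distinct symbols, and the other 142 are unnamed here. The names came from the study's supplementary annotation, which covers 4502 probes that its authors had called changed between consecutive time points on these same arrays. The first of its lists was available only in part, so probes unnamed here may be named in the full list. All 58 named probes stand in the annotation of the first 3 comparisons (2 to 5, 5 to 10 and 10 to 15 dpf). Being named was thus tied to an early change, and counts over the named probes are no independent evidence of one. No probe sequence was available for these arrays, so each member is given by its name and probe.

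Measured as a log2 difference, the smallest fall was 1.65, the median 1.86 (3.63-fold) and the largest 3.69. The steepest probe was C144R155 for LGMN, which encodes legumain, a lysosomal protease that cuts after asparagine. Its levels in the 3 individuals were 1.78, 1.78 and 2.23 at 15 dpf, 2.64, 2.27 and 2.23 at 20 dpf, 0.81, 0.81 and 0.99 at 41 dpf, and -1.98, -1.97 and -2.57 at 89 dpf. The fall of LGMN was 3.69 (12.9-fold), which stood well apart from the second probe, the unnamed C004R067, at 2.72. The third was C218R072 for MCM3, a subunit of the helicase that opens DNA for replication, with a fall of 2.66. A second MCM3 probe, C097R015, ranked 10 with a fall of 2.51. At the other end the last members included the unnamed C216R133 at 1.66 and sfrs1 at 1.65, and the first probes left out, all unnamed, were C099R054 at 1.65, C120R139 at 1.65 and C263R119 at 1.65. The set therefore ends inside a continuous range of falls, with no gap between the probes just in and just out.

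The decline was gradual in the median and uneven in single probes, while the median of the 6538 other probes that met both conditions was 0.18 at 15 dpf, 0.03 at 47 dpf and -0.10 at 89 dpf. The median level was 1.17 at 15 dpf, 0.76 at 25 dpf, 0.19 at 35 dpf, -0.04 at 47 dpf, -0.38 at 59 dpf, -0.68 at 71 dpf, -1.01 at 83 dpf and -0.68 at 89 dpf. Of the total fall, the median member had covered 38.3% by 30 dpf, 48.0% by 35 dpf, 74.0% by 53 dpf and 92.5% by 71 dpf. The midpoint of the fall had a median of 35.3 dpf and ran from 26 to 57.6 dpf, the latest being CSTB (cystatin-B, an inhibitor of cysteine proteases). No member was lower at every one of the 13 consecutive steps. The median member was lower at 9 of them, the range was 5 to 12, and 60 members were lower at 10 or more.

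Among the 13 steps, 25 to 30 dpf carried the largest median change, at -0.40 with 179 of the 200 members lower, followed by 47 to 53 dpf at -0.33 with 167 lower. From 35 to 41 dpf, the interval that includes hatching, the median change was -0.07 and 110 members were lower (55.0%), close to the 55.5% of the other 6538 probes. The last step ran the other way. From 83 to 89 dpf the median member was 0.31 higher, only 43 of 200 were lower (21.5%, against 44.7% of the other 6538 probes), and 115 members had their lowest mean at 83 dpf. The medians over the members of the single arrays were -1.12, -0.94 and -0.95 at 83 dpf and -0.74, -0.48 and -0.82 at 89 dpf, which did not overlap.

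The individuals of one day differed by a median SD of 0.34 over the members, against 0.33 over the other 6538 probes. In 189 members all 6 arrays of 15 and 20 dpf lay above all 9 arrays of 77, 83 and 89 dpf, which also held for 694 of the other 6538 probes. Where early and late individuals shared a slide, 199 members on slide 3 (20 against 83 dpf) and all 200 on slide 6 (15 against 83 and 89 dpf) and slide 8 (15 against 83 dpf) were higher in the early fish, against 56.9%, 63.7% and 65.4% of the other 6538 probes. These arrays are among those the members were ranked on, so the choice fixed this direction. The median Cy5 signal of the members was 6430 at 15 dpf and 1350 at 89 dpf, where 16 members were under 500 on all 3 arrays. For those 16 the level at 89 dpf is close to the lower end of what the arrays read.

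The fall was also read in individuals that had not served to choose the probes. When the same rule was applied to 2 individuals per day, the 200 probes it took had a median fall in the individual left out of 1.75 for replicate 1, 1.69 for replicate 2 and 1.72 for replicate 3. It was above 0 for 200, 200 and 199 of the 200 probes. The other probes that met the conditions had medians of 0.26, 0.27 and 0.19. The identity of the probes was less fixed than the size of the fall, since these 3 sets shared 106, 116 and 79 probes with the 200.

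Before 15 dpf the members differed more among themselves than later, and most had already been at their highest. The lower and upper quartiles of the members were -1.03 and 1.19 at 2 dpf, 0.53 and 2.28 at 5 dpf, 1.12 and 1.93 at 10 dpf, and 0.98 and 1.42 at 15 dpf, the day by which the choice held them together. Quartiles of the other 6538 probes narrowed as well, from -1.39 and 0.85 at 2 dpf to -0.14 and 0.49 at 15 dpf, so the wider early spread was not particular to the members. Over all 17 time points the highest mean was at 5 dpf for 75 members (37.5%, against 14.4% of the other 6538 probes) and at 10 dpf for 53 (26.5%, against 12.8%). A further 26 members were highest at 2 dpf, a smaller share than the 26.4% of the other probes, 29 at 15 dpf, 15 at 20 dpf and 2 at 30 dpf. At both 5 and 10 dpf, 108 members stood above their 15 dpf mean, while 44 were below it at 2, 5 and 10 dpf. At 2 dpf, 55 members stood even below their 89 dpf mean. Medians over the members of the single arrays were 0.08, 0.28 and 0.51 at 2 dpf and 1.57, 1.44 and 1.61 at 5 dpf, which did not overlap. Those over the other 6538 probes did not overlap either, but lay closer together. They were -0.20, -0.17 and -0.19 at 2 dpf and -0.04, -0.13 and -0.14 at 5 dpf.

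The early days were compared with limma across all probes left by a filter on dim probes, called tested here. The members had also met the signal condition of the choice. Only 10774 probes met it, so the tested probes included others that did not. Shares over all tested probes are thus not on a like footing with those of the members. The other probes that met the conditions of the choice are the closer comparison. A probe was called when its adjusted p was under 0.05 and its change at least 2-fold, and rose or fell is written of early changes that met both. From 2 to 5 dpf, 103 of the 198 members tested rose (52.0%) and 19 fell (9.6%), where over all 20911 tested probes 20.0% rose and 19.8% fell. The median log2 difference of the members was 1.13, against -0.10 over all tested probes. Among the other probes that met the conditions 24.6% rose and 20.0% fell. Signals under 500 on every array of 2 dpf were found for 62 of the 200 members and 2219 of these 6538 others. Probes this dim at 2 dpf had mainly room to rise. Apart from the named ones, the 140 unnamed members tested included 59 that rose (42.1%) and 14 that fell (10.0%), and over all unnamed tested probes 17.4% rose and 16.7% fell. When arrays were centred on their medians in place of loess, the median of all tested probes moved to 0.43 and 144 members rose and 1 fell, against 32.2% and 6.76% of all tested probes. The share of members that rose was above that of all probes under both scalings, and the share that fell was below it under both.

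From 5 to 10 dpf, 35 of 189 members tested rose (18.5%) and 21 fell (11.1%), where over all tested probes 11.9% rose and 8.47% fell. Among the other probes that met the signal and step conditions 14.2% rose and 5.51% fell, and their shares are not given for the alternatives. Their median log2 difference was -0.01 and took both signs over the alternatives run, from -0.04 to 0.17. The 21 that fell became 6 of 171 without the second individual of each day (3.51%, against 4.13% of all tested probes) and 6 of 189 with the slide as a fixed block (3.17%, against 4.26%), so in both cases the share of members that fell was below that of all probes. It was also below with signals of at least 500 on all 6 arrays (12 of 142, 8.45% against 9.6%). With median centring and a block for the replicate number it was 7.94% against 7.99%. From 2 to 10 dpf, 106 of 190 members rose (55.8%) and 15 fell (7.89%), where over all tested probes 26.7% rose and 24.4% fell. Among the other probes that met the conditions 33.2% rose and 21.2% fell. With median centring 153 members rose and 2 fell, against 41.7% and 11.9% of all tested probes. Of the 189 members tested in both steps, 74 rose from 2 to 5 dpf and were then not called, 11 rose in both, 11 rose and then fell, 8 fell and then rose, 2 fell in both and 51 were called in neither. A rise from 2 to 5 dpf followed by no call was the most frequent of these courses, at 39.2% of the members against 15.8% of the 20685 probes tested in both steps, and 27.0% of the members were called in neither step, against 49.0%. A rise in both steps was found for 5.82% of the members and 2.04% of all these probes, a rise and then a fall for 5.82% and 1.67%, and a fall and then a rise for 4.23% and 2.19%. A fall in both was found for 1.06% and 2.92%. The remaining courses were a fall and then no call in 8 members (4.23%, against 14.9% of all these probes). No call and then a rise was found in 16 (8.47% against 7.63%), and no call and then a fall in 8 (4.23% against 3.89%).

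Signal strength bears on these counts. A Cy5 signal under 500 on all 3 arrays was found for 62 members in the 2 dpf fish, 9 in the 5 dpf fish and 0 in the 10 dpf fish, and the 9 were among the 62. For those 9 neither 2 nor 5 dpf was measured well, and for the rest of the 62 only the later day had an array of at least 500. Among the 89 members with unflagged signals of at least 500 on all 6 arrays of 2 and 5 dpf, 33 rose and 11 fell, against 9.48% and 40.0% of all probes measured this way. At the bright end, 23 members at 5 dpf and 35 at 10 dpf had a saturated array, and 2 and 10 members flagged on every array of those days could not be tested there. On slide 14, the only slide with fish of both days, 1 array of 2 dpf stood against 2 of 5 dpf, and 143 of the 200 members were higher at 5 dpf (71.5%, against 51% of the other 6538 probes), with a median difference of 1.04. The part of repeated extraction and labelling of the small embryos in these differences was not tested.

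Replication was represented by MCM3, with 2 probes. The probe C218R072 read -0.14, 0.52 and -0.21 in the 3 individuals at 2 dpf, 3.14, 2.39 and 2.19 at 5 dpf, 2.09, 1.76 and 2.27 at 10 dpf, 2.36, 1.95 and 1.50 at 15 dpf, and -0.57, -1.03 and -1.43 at 89 dpf. All fish of 5, 10 and 15 dpf lay above all fish of 2 and 89 dpf. From 2 to 5 dpf MCM3 rose by 2.49 (SE 0.36, limma adjusted p = 2.65e-07), and from 5 to 10 dpf the difference was -0.54 (SE 0.36, adjusted p = 0.289). The second MCM3 probe, C097R015, rose by 2.53 from 2 to 5 dpf. Another MCM3 probe, C195R065, had a fall of 2.63 but exceeded the step limit and was not a member.

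Among the gene lists, that of RNA-binding and splicing proteins had the most members, 10 of its 128 tested probes. Over all named tested probes, 58 of 4305 were members. The chromatin list had 6 of 85 and the replication list 2 of 40, while 32 named members were in no list. The 10 included RBM4B, PTBP2, HNRPH1, HNRNPL (2 probes), HNRNPA1, Khdrbs1, ilf2 and sfrs1. From 2 to 5 dpf 9 of the 10 rose and from 5 to 10 dpf 3 fell, RBM4B and ilf2 among them. Over all named tested probes 29.8% rose and 32.0% fell in the first step and 19.2% fell in the second. Of all 58 named members, whose names were tied to an early change, 44 rose in the first step and 9 fell in the second. HNRPH1, which encodes an RNA-binding protein that steers alternative splicing, read 0.11, -0.01 and 0.34 at 2 dpf, 2.78, 2.87 and 2.91 at 5 dpf, and 2.03, 1.81 and 1.97 at 10 dpf. It then read -0.22, 1.00 and 1.46 at 15 dpf and -0.79, -0.56 and -0.80 at 89 dpf, so the 5 dpf fish stood above all others while those of 15 dpf were far apart. Its rise from 2 to 5 dpf was 2.71 (SE 0.28, limma adjusted p = 1.70e-10). That p rests on the spread over all time points, and limma on the 6 arrays of these days alone gave an adjusted p of 0.000391. The change of RBM4B from 2 to 5 dpf, 0.97, was the one under 2-fold. For sfrs1, a core splicing factor of the SR family, the 3 individuals read -0.29, 0.29 and 0.01 at 2 dpf and 2.57, 1.93 and 2.72 at 5 dpf. The sfrs1 probe rose by 2.39 (SE 0.29, limma adjusted p = 5.78e-09). The HNRNPL probe C018R137 was under 500 on every array of 2 dpf, which allows only a bound. By that bound, taken from Cy5 alone, it was at least 27.4-fold higher at 5 dpf.

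Chromatin and histone genes had 6 members: SET, CBX3, NPM1, h2afx, Smarca5 and esc. All 6 rose from 2 to 5 dpf, when 44 of the 58 named members and 29.8% of all named tested probes did. From 5 to 10 dpf only Smarca5, an ATPase that slides nucleosomes, fell (log2 difference -1.29). NPM1 encodes nucleophosmin, a nucleolar histone chaperone that takes part in ribosome assembly. It read 0.35, 0.00 and 0.08 at 2 dpf, 2.43, 2.06 and 2.22 at 5 dpf, 2.59, 2.03 and 2.72 at 10 dpf, 1.72, 1.29 and 1.27 at 15 dpf, and -0.40, -0.48 and -0.41 at 89 dpf. The 5 and 10 dpf fish overlapped each other and lay above those of 2, 15 and 89 dpf. From 2 to 10 dpf NPM1 rose by 2.02 (SE 0.29, limma adjusted p = 1.58e-07). SET, a histone chaperone and phosphatase inhibitor, read 0.11, 0.67 and 0.50 at 2 dpf, 2.79, 2.66 and 2.72 at 5 dpf and 1.86, 2.02 and 2.12 at 10 dpf, with no overlap between these days. SET rose by 2.29 from 2 to 5 dpf (SE 0.25, limma adjusted p = 6.69e-10) and then changed by -0.71, under the 2-fold limit. The histone variant gene h2afx was under 500 on all 3 arrays of 2 dpf, and the gastrula value exceeded that by at least 4.89-fold.

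Several further members serve ribosome assembly and growth metabolism, grouped here after their values were seen. Rrs1 and RSL1D1, both nucleolar factors of ribosome production, rose by 1.90 and 2.41 from 2 to 5 dpf. nola1, a protein of the particle that converts uridine to pseudouridine in ribosomal RNA, rose by 1.85. Srm, the spermidine synthase, and HPRT1, a purine salvage enzyme, were too dim to measure in the 2 dpf fish, and by 5 dpf Srm was at least 5.94-fold and HPRT1 at least 3.41-fold higher. HPRT1 read -2.86, -2.10 and -2.94 at 2 dpf, 0.50, 0.99 and 0.94 at 5 dpf, 2.12, 2.20 and 2.24 at 10 dpf, and 1.41, 2.08 and 2.30 at 15 dpf. It rose again from 5 to 10 dpf, by 1.40 (SE 0.34, limma adjusted p = 0.00155). Transporters and chaperones were also among the members, with differing courses. SLC16A7, a monocarboxylate transporter, read -0.74, -0.53 and -0.19 at 2 dpf, 2.22, 2.70 and 2.92 at 5 dpf, 2.68, 2.81 and 3.01 at 10 dpf, and -0.91, -0.23 and -1.15 at 89 dpf. Too dim in the 2 dpf fish, it was at least 5.52-fold higher by 5 dpf, and SLC2A3, a glucose transporter, at least 5.81-fold. From 5 to 10 dpf SLC2A3 fell by 1.30 (limma adjusted p = 0.00512). Nutf2, which carries the Ran GTPase into the nucleus, fell by 1.03 from 2 to 5 dpf (limma adjusted p = 0.00554). With median centring only 1 of 198 members fell in that step (0.505%, against 6.76% of all tested probes). PTGES3, a cochaperone of HSP90, read -0.06, -0.16 and -0.48 at 2 dpf and 2.83, 2.83 and 3.02 at 5 dpf. CCT1, a subunit of the chaperonin that folds actin and tubulin, had 2 probes. The CCT1 probe C115R036, under 500 on 2 arrays of 2 dpf, rose by 2.12 from 2 to 5 dpf. The other, C221R079, was under 500 on all 3 arrays of 2 dpf and was at least 3.15-fold higher at 5 dpf. Of the translation list only Rrs1 and ELOF1 were members, and ELOF1 is a transcription elongation factor that the text pattern of that list caught.

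KIF22 and ZNF135 were high from the first sample. KIF22, a kinesin that moves chromosomes in mitosis and the only member of the cell cycle list, read 2.78, 2.33 and 2.69 at 2 dpf, 2.30, 2.92 and 2.37 at 5 dpf, and 1.08, 1.27 and 0.47 at 10 dpf. It fell by 1.58 from 5 to 10 dpf (SE 0.49, limma adjusted p = 0.0155). It was not called there without replicate 2 (log2 difference -1.54, adjusted p = 0.0822), without replicate 3 (-1.43, adjusted p = 0.148) or with the slide as a block (-1.15, adjusted p = 0.367). ZNF135, a zinc finger protein, read 3.64, 3.88 and 3.61 at 2 dpf, 3.62, 3.23 and 3.66 at 5 dpf, and 1.14, 1.13 and 1.30 at 10 dpf. The 10 dpf fish lay well below the others, and ZNF135 fell by 2.24 (SE 0.27, limma adjusted p = 1.73e-08).

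The probe named for a Tcb1 transposase, C028R130, was under 500 on every array of 2 dpf. It rose by at least 40.7-fold from 2 to 5 dpf and fell by 1.44 on the log2 scale from 5 to 10 dpf. Probes to a repeated element can read several copies, so its level belongs to no single gene.

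LGMN, Rragc and CSTB had their lowest early value in the gastrula. LGMN read -0.57, -0.21 and -0.38 at 2 dpf, -1.64, -2.37 and -2.07 at 5 dpf, and 1.15, 0.77 and 1.07 at 10 dpf. It fell by 1.59 from 2 to 5 dpf (SE 0.31, limma adjusted p = 6.33e-05) and rose by 2.80 from 5 to 10 dpf (SE 0.31, limma adjusted p = 5.67e-09). Rragc, a GTPase that relays amino acid supply to the growth kinase mTORC1, fell by 1.60 and then rose by 1.85, and CSTB fell by 1.56 and then rose by 1.33. From 2 to 10 dpf Rragc and CSTB differed by 0.25 and -0.22, which were not called (limma adjusted p = 0.524 and 0.578). With median centring the 2 to 5 dpf changes of LGMN, Rragc and CSTB were -0.34, -0.59 and -0.21 and none was called (limma adjusted p = 0.541, 0.259 and 0.697), whereas the rise of LGMN from 5 to 10 dpf kept its call under every alternative run.

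The members that follow rose from 5 to 10 dpf and were grouped after their values were seen. hand2, a transcription factor of the heart, pectoral fin and neural crest, read -1.64, -1.58 and -2.11 at 2 dpf, -1.33, -1.31 and -1.10 at 5 dpf, and 1.78, 1.74 and 1.33 at 10 dpf. All 6 arrays of 2 and 5 dpf were under a signal of 500, and hand2 at 10 dpf was at least 3.95-fold higher than at 5 dpf (limma adjusted p = 1.55e-07). The homeobox genes msxc and XHOX-7.1, both of the Msx family, were at least 1.96-fold and at least 13.1-fold higher at 10 than at 5 dpf. The msxc probe was called as rising from 2 to 5 dpf as well (limma adjusted p = 0.0414), although all 6 arrays of those days were under 500. Lamb1-1, the laminin beta-1 chain of basement membranes, read -0.28, 0.16 and 0.11 at 5 dpf and 2.86, 2.44 and 2.35 at 10 dpf. It rose by 2.58 (SE 0.35, limma adjusted p = 2.23e-07) after an earlier rise of 1.69 from 2 to 5 dpf (limma adjusted p = 9.56e-05), at least 2.55-fold with the dim signal of 2 dpf taken as a bound. PODXL, a sialomucin of the surface of kidney podocytes and of blood vessels, read -2.69, -1.74 and -2.11 at 5 dpf, 0.83, 0.61 and 0.83 at 10 dpf, and 0.92, 1.31 and 1.94 at 15 dpf, and was at least 5.45-fold higher at 10 than at 5 dpf. ino1-A, the enzyme that makes inositol phosphate from glucose phosphate, read 0.00, -0.22 and -0.23 at 5 dpf and 2.72, 2.19 and 2.33 at 10 dpf. It rose by 2.60 (SE 0.27, limma adjusted p = 8.42e-10).

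The unnamed members covered the same range of courses. The second-ranked C004R067 had means of 1.97, 1.35 and 2.11 at 2, 5 and 10 dpf and was called in neither early step. C200R033, ranked 17, stood at 4.59 at 2 dpf and 1.74 at 15 dpf, and C163R036, ranked 27, at -4.17 at 2 dpf and 1.97 at 15 dpf. These probes were picked after their values were seen, as the ends of the range among the highest ranks.

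Other probes with the name of a member were then compared between 15 and 89 dpf. For 26 of the symbols 40 further probes were on the array, and 22 of these were lower at 89 dpf in the limma fit (55.0%) and 0 higher, where over all named tested probes 17.5% were lower and 20.8% higher. These symbols were chosen for that very decline, and probes of one symbol may read the same transcripts or copies of the gene. LGMN had 2 further probes, lower by 3.55 and 2.48 on the log2 scale, that had failed the step condition. Cd276, a membrane protein of the B7 family, had a member probe with a fall of 2.45. Another Cd276 probe, C249R087, had a fall of 0.06 and a log2 difference from 15 to 89 dpf of -0.08 (limma adjusted p = 0.889).

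The other named probes of the gene lists, without the 200 members, showed which groups shared the decline from 15 to 89 dpf. The shares over all named tested probes set beside them include the 58 named members. Of the cell cycle and mitosis list 32 of 64 tested probes were lower at 89 dpf and 2 higher, with a median log2 difference of -1.06, where the shares over all named tested probes were again 17.5% and 20.8%. Examples were CDCA7, a target of the MYC factor (log2 difference -3.31), ccne1, the cyclin that starts DNA synthesis (-2.49), and aurkb, a mitotic kinase (-2.01). Of the replication and repair list 14 of 38 were lower and 1 higher, among them lig1, the ligase that joins new DNA fragments (-2.35), and rrm2, a subunit of the enzyme that makes deoxynucleotides (-2.15). Of the RNA splicing and RNA-binding list 33 of 118 were lower and 4 higher, with lin28, an RNA-binding protein of early embryos, at -2.56 and snrpf, a core protein of the splicing particles, at -2.21.

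The further lists were counted the same way, beside 17.5% lower and 20.8% higher over all named tested probes. Lower and higher at 89 dpf were 29 and 8 of 100 probes of the developmental transcription factor list (29.0% and 8.0%). They were 15 and 5 of 43 of developmental signalling (34.9% and 11.6%). Histones and chromatin had 17 and 10 of 79 (21.5% and 12.7%), and translation 42 and 8 of 224 (18.8% and 3.57%). The proteasome list had 19 and 13 of 139 (13.7% and 9.35%). The cytoskeleton and adhesion list had 22 and 33 of 144 (15.3% and 22.9%), and the extracellular matrix list 9 and 22 of 64 (14.1% and 34.4%). Only 2 of the transcription factor probes, 2 of translation and 1 of matrix were members, and signalling, proteasome and cytoskeleton had none.

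Lists of markers for single tissues were counted over the same days, beside the same 17.5% lower and 20.8% higher. Of the muscle contractile list 63 of 85 probes were higher at 89 dpf and 1 lower, with a median log2 difference of 3.02. Its 1 member was MYH11, a smooth muscle myosin, with a fall of 1.85, and the 3 further MYH11 probes had falls of 1.15, 1.02 and 0.8. From 15 to 89 dpf the log2 difference of the member was -1.51. Those of the 3 further probes were between -0.46 and -0.34 and were not called. Of the erythroid and hemoglobin list 9 of 36 probes were higher and 12 lower, of the neural list 10 of 53 higher and 13 lower, and of the maternal and oocyte list 1 of 17 higher and 5 lower. The part of these list changes in the decline of the 200 probes was not tested.

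The rising probes taken by the mirrored ranking, also 200, were the counterpart by construction from 15 dpf on. On the days that neither ranking used, their median level was -1.69 at 2 dpf, -2.09 at 5 dpf and -1.42 at 10 dpf, against 0.21, 1.55 and 1.53 for the falling probes. Both sets thus stood farther from their later levels at 5 dpf than at 15 dpf.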

How the data were processed

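The authors scanned the arrays, quantified them with ImaGene and deposited background-corrected median intensity values per channel with spot flags. They also deposited a table of log2 ratios (GeneSpring GX: signals raised to at least 1, Lowess, each probe centred on its median over all samples). That table correlated with the scanner log ratios at 0.926 to 0.991 per array, with Cy5 over Cy3 as direction, and served for the choice and the levels. The members, gene lists and tests were chosen with earlier results of these data known. For tests, loess was fitted within each array (limma 3.58.1, R 4.3.3; signals under 1 set to 1, flagged spots left out, 2.35% of probe spots). One fit over the 51 arrays used a mean per time point and Benjamini-Hochberg adjustment over 20964 tested probes, those left by a filter on dim probes. The fit was tested on simulated data. The p-values of this fit rest, for each probe, on the spread between individuals of the same day, pooled over all time points. That spread is not the one of the 3 individuals of each compared day alone.

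A probe under 500 on all 3 arrays of a day gave only a bound. It set the mean normalized Cy5 value of the brighter day (limma Aquantile, open to dye bias) against, per array, the higher of the probe's own value and the lowest value among unflagged spots of at least 500. Since it uses Cy5 alone, it can exceed the fold of the tested ratio, as for Khdrbs1 from 2 to 5 dpf (13.25 against 12.7). The genes named in the text were the 12 highest-ranked with a symbol, the first members of each list, the 3 largest rises and falls per early comparison among well-measured named members, the ranks around the limit and genes with several member probes. Others were named after their values were seen. Gene lists were text patterns on symbols and descriptions. The study's fold changes and tests were not used. Arrays are limited in precision by their number. Values of some named members are not reported here.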

Additional observations from a re-analysis of the deposited data

How the results depend on the processing

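With other values or limits the rule took other probes: of the 200, the number in common was 125 with median centring, 127 with Cy5 alone, 52 with a step limit of 0.6 (median fall 1.46), 104 with a limit of 1.0, 100 for the top 100, and 79 to 116 without 1 replicate. All 200 kept a fall of at least 1 under each of the 3 other scalings and without each replicate. They had been chosen for a fall of at least 1.65 on these same arrays, so the choice largely fixed this. For 2 to 5 dpf the 103 rises became 64 of 191 with the methods' t-test (33.5%, against 7.95% of all tested probes). They became 60 of 191 after its Benjamini-Hochberg adjustment (31.4%, against 7.26%). With signals of at least 500 on all 6 arrays they became 33 of 89 (37.1%, against 9.48%). The 19 falls became 1 with median centring (0.505%, against 6.76% of all tested probes). They became 10 to 18 without 1 replicate (10 without replicate 2, 5.24% against 15.9%). With the methods' t-test they became 5, and 4 after adjustment (2.62% against 8.66%, and 2.09% against 7.73%). With the signal minimum they became 11 (12.4% against 40.0%). For 5 to 10 dpf the 35 rises became 21, 15 and 18 with that t-test, its adjustment and the signal minimum. These were 12.4%, 8.82% and 12.7%, against 6.4%, 4.73% and 8.59% of all tested probes. The 21 falls became 10, 6 and 12 under these 3 settings (5.88%, 3.53% and 8.45%, against 4.51%, 3.18% and 9.6%). They became 6 with the slide as a fixed block (3.17% against 4.26%). Without 1 replicate they became 6 to 21 (6 without replicate 2, 3.51% against 4.13%). For 2 to 10 dpf the 106 rises became 65 of 172 with the methods' t-test (37.8%, against 10.5% of all tested probes). With the signal minimum they became 23 of 79 (29.1% against 8.52%). The 15 falls became 6 with that t-test (3.49% against 13.6%) and 2 with median centring (1.05% against 11.9%). A replicate block gave the same 103 and 19, 35 and 21, and 106 and 15 calls. Same-numbered fish of the early days deviated together with correlations of 0.00123 to 0.106, so the numbers do not pair them. The members' median difference from 5 to 10 dpf, -0.01, ran from -0.04 to 0.17 and was 0.12 with median centring. List counts from 15 to 89 dpf moved too. Without replicate 2 the lower translation probes went from 42 to 26 and the lower cytoskeleton probes from 22 to 14. Without replicate 3 the lower maternal probes went from 5 to 2, the higher histone probes from 10 to 5 and the lower cell cycle probes from 32 to 23 of 64. With Cy5 alone the lower probes of the RNA splicing and RNA-binding list went from 33 to 48 of 118, where 17.2% of all tested probes were lower. Over all tested probes, most of them unnamed, 14% were lower, 10.1% without replicate 2 and 10.9% without replicate 3. The share higher was 17.4%, 14.7% and 15.2%. The list probes are all named, and shares over the named probes alone (17.5% lower and 20.8% higher in the main fit) are not given for these settings. Of the named early changes, 13 of 391 values under the alternatives lost their call, for LGMN, Rragc, CSTB, KIF22 and ZNF135. The cause of these changes was not tested, except that the signal minimum tests fewer probes. Saturation and signals under 500 limit the early folds.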
